A study of Homo sapiens with 13 samples.

Results

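The comparison asked how rapamycin changed the RNA recovered with eIF4G relative to the RNA present in the cell. It used 9 of the 13 libraries and was taken over all 9908 genes tested of 26454 in the table. For each gene, IP enrichment was the log2(FPKM + 1) in the eIF4G immunoprecipitate (IP) minus that in total RNA. The rapamycin change of IP enrichment was the enrichment in rapamycin cells minus the enrichment in control cells, a difference of differences that leaves out changes of RNA level shared by both fractions. FPKM are tags scaled to gene length and to the depth of the library, so each value is a share of its library, and fewer RNA molecules per cell and fewer cells cannot be told apart.

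The cells were U2OS, a human osteosarcoma line, and all of them were transfected with siRNA for 48 h. Control cells received control siRNA and a mock treatment, with 3 IP and 2 total RNA libraries. Rapamycin cells received control siRNA and 50 ng/ml rapamycin for 24 h, with 2 IP and 2 total RNA libraries. The other 4 libraries, from cells with CDK12 siRNA, entered the scaling, the filter on low values and the estimate of the spread, but not the contrast. All RNA was depleted of ribosomal RNA and sequenced from a single end, so nuclear and noncoding RNA was measured beside mRNA. The labels do not tie replicates to separate cultures, and the spread behind every p-value here is that between samples, which may be technical. All rapamycin libraries share one date code in their titles and all other libraries another, so rapamycin and that date cannot be told apart. An IP with a control antibody was not analysed here, so IP enrichment includes any RNA held without eIF4G.

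eIF4G is the scaffold of the eIF4F complex, which joins the cap-binding protein eIF4E, the helicase eIF4A and poly(A)-binding protein and brings the small ribosomal subunit to an mRNA. The kinase complex mTORC1 controls this step by phosphorylating the 4E-BP proteins, which otherwise compete with eIF4G for eIF4E, and rapamycin, bound to the immunophilin FKBP12, inhibits mTORC1 in part. Messages for ribosomal proteins and elongation factors begin with a C and a run of pyrimidines, the terminal oligopyrimidine (TOP) tract, and are the class best known to depend on mTORC1, through LARP1 and the 4E-BPs.

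Depth was 12874300 to 30617400 tags per library. Tags within annotated genes made up 96.4% to 97.4% of the control IPs and 91.4% to 93.3% of the rapamycin IPs, against 83% to 83.4% of control total RNA and 86.6% to 87.7% of rapamycin total RNA. The part of this shift in the results was not tested. Of 8 mesenchymal and bone markers, 7 passed the filter on low values, and the summed FPKM of all 8 was 116 to 126 in control total RNA. It was 174 to 186 in rapamycin total RNA, 269 to 277 in the control IPs and 224 to 255 in the rapamycin IPs. TWIST1 was at 0 in all 9 libraries. Of 6 epithelial markers 1 passed the filter, and of 8 haematopoietic markers none did. Epithelial markers summed to at most 2.16 FPKM and haematopoietic markers to at most 0.906 FPKM in any library.

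In the rapamycin libraries, which also differ from the controls in date code, the IP lay closer to total RNA than in the control libraries. A gene was called where limma's Benjamini-Hochberg adjusted p was under 0.05. IP enrichment fell for 3755 genes (37.9% of those tested) and rose for 2424 (24.5%), and the median change over all genes was -0.14 on the log2 scale. Falls of at least 2-fold were made by 1717 genes (17.3%), and rises of that size by 236 (2.38%). Calls in either direction made up 62.4% of genes. For 44.6% of genes every rapamycin pair of an IP and a total library lay below every control pair, and for 29.8% every rapamycin pair lay above. Of the calls, 60.8% were falls, and this share was 47.7% after quantile normalization and 45.8% with the trend on gene length removed, which moved the median of all genes to 0.02 and 0.06.

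The change was a narrowing from both ends. Over the 9908 genes, the SD of IP enrichment was 1.07 in control cells and 0.458 in rapamycin cells, a ratio of 0.428. In the 6 pairs of a control IP with a control total library the SD was 1.06 to 1.14, and in the 4 rapamycin pairs it was 0.420 to 0.544, so the pairs did not overlap. Enrichment of at least 2 log2 units was seen for 924 genes in control cells and for 8 in rapamycin cells. IP and total RNA correlated across genes at r = 0.737 to 0.768 in the control pairs and at 0.927 to 0.946 in the rapamycin pairs, a description over genes that share their libraries. Rank among genes was partly kept, since enrichment in rapamycin cells correlated with that in control cells at r = 0.626 (Spearman's rho 0.677) over the 9908 genes. Leaving out single libraries moved the ratio of SDs between 0.396 and 0.492.

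**Figure D1:**
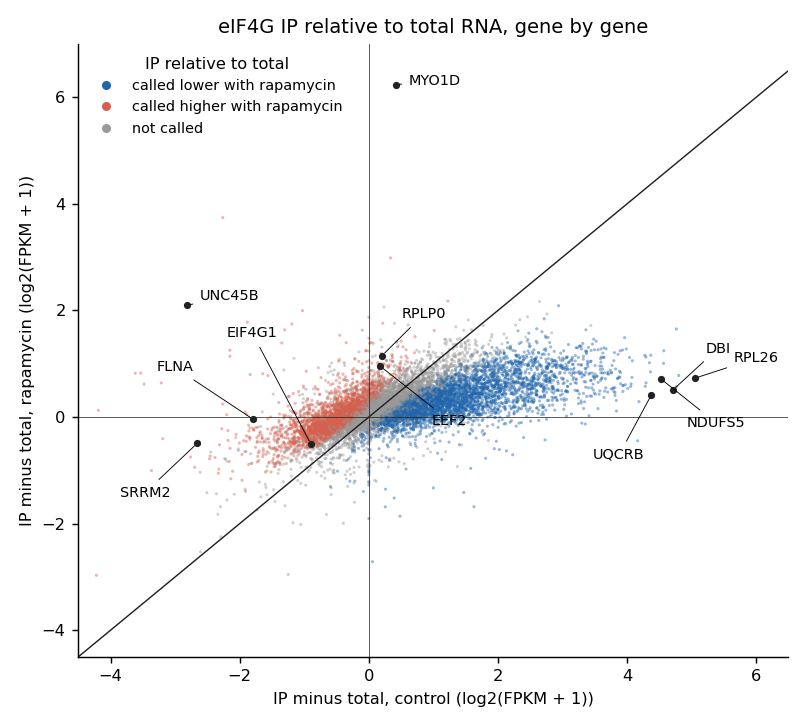
IP enrichment of each of the 9908 tested genes in control cells (x axis) and rapamycin cells (y axis), both as log2(FPKM + 1) in the IP minus total RNA. Points below the diagonal lost enrichment and points above it gained; the cloud is wider along x (SD 1.07) than along y (SD 0.458).

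Most of the change lay in the IP. Of the 3755 genes that fell, 3662 (97.5%) had been called enriched in the control IP (54% of all genes). The IP level itself was called lower in 3300 of them (87.9%, against 40.3% of all genes), and total RNA was called higher in 737 (19.6%, against 20.4% of all genes). Of the 2424 that rose, 1995 (82.3%, against 26.4% of all genes) had been called depleted from the control IP, 1970 (81.3%, against 32.2% of all genes) were called higher in the IP and 940 (38.8%, against 16.2%) were called lower in total RNA. In either direction, 80.5% of genes were called for control IP against total, 51.9% for rapamycin IP against total, 72.5% for the change of the IP and 36.7% for that of total RNA. The levels in each fraction share their libraries with the change of enrichment, so these counts describe where the change sits and are no separate evidence of it.

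Ribosomal protein messages ranged from deep falls to a few rises, and their start sequences are given because the TOP tract is the known mark of mTORC1-dependent messages. Each window holds the 10 bases before and the 20 bases from the RefSeq start on GRCh38.p14, written 5′ to 3′ on the gene's strand, with the tract in capitals where the start is a C followed by at least 4 pyrimidines. RPL26, RPS6 and EEF1A1 carry a tract and fell, and RPLP0 and EEF2 carry one and rose. These genes are examples and do not give the shares. Among the 47 tested ribosomal protein genes found with a tract, 30 fell, 3 rose and 14 were not called. RPL36AL, DBI and SRP19 carry none at the RefSeq start and fell. In RPL36AL the 10 bases before that start are all pyrimidines, so the lack of a tract rests on the exact start.
RPL26: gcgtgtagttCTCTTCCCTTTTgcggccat
RPS6: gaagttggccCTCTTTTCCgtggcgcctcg
EEF1A1: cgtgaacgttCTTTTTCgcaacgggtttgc
RPLP0: ggcgcgaggcCCTTCTCTCgccaggcgtcc
EEF2: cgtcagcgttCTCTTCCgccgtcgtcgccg
RPL36AL: tcttccctttcctgttaggcgagagctgcg
DBI: gcaagtcggccaggatgtctcaggtacagc
SRP19: gcggaaaagcgggctgtctcggaaactcag
On GRCh38.p14 these windows lie at chr17:8383174-8383203 (RPL26), chr9:19380217-19380246 (RPS6), chr6:73521013-73521042 (EEF1A1), chr12:120201092-120201121 (RPLP0), chr19:3985444-3985473 (EEF2) and chr14:49620607-49620636 (RPL36AL), all on the minus strand, and at chr2:119367038-119367067 (DBI) and chr5:112861277-112861306 (SRP19) on the plus strand.

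RPL26 (hg19 chr17:8280834-8286482), which encodes a large subunit protein, had FPKM of 1103, 968 and 1023 in the control IPs and of 52.4 and 36.8 in the rapamycin IPs. Its total RNA was at 34.9 and 34.5 in control cells and at 29.9 and 27.7 in rapamycin cells. The control IPs stood far above the other 6 libraries, which lay close together. The change of enrichment was -4.32 ± 0.37 (SE, adjusted p = 1.98e-05 by limma), from an enrichment of 5.05 to one of 0.73. RPS6, the ribosomal protein that S6 kinase phosphorylates, had 875, 798 and 760 FPKM in the control IPs and 180 and 137 in the rapamycin IPs. Its total RNA was 53.2 and 55.1 FPKM in control cells and 88.2 and 78.0 in rapamycin cells, so its IP level fell while its total level did not. Its enrichment changed by -3.03 ± 0.23 (adjusted p = 1.35e-05 by limma).

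Of 51 tested large subunit proteins, 36 fell and 3 rose (median -1.43), and of 30 tested small subunit proteins 16 fell and none rose (median -1.27), beside 37.9% and 24.5% of all genes. The medians of both lists stayed below that of all genes under each of the 21 alternatives. RPL23 (-4.02), which overlaps SNORA21, RPL14 (-3.06) and RPS3 (-2.86) also fell, with the change in the IP. RPS27A (-2.88) differed from them, with a called rise of 2.65 in total RNA and an IP change of -0.24 that was not called (adjusted p = 0.65). At the other end stood the stalk protein RPLP1, with 19.1, 10.8 and 15.8 FPKM in the control IPs, 82.2 and 58.9 in the rapamycin IPs, 19.0 and 21.6 in control total RNA and 42 and 38.9 in rapamycin total RNA. Its enrichment rose by 1.14 ± 0.37 (adjusted p = 0.0241 by limma), a call that was lost without IP rapamycin library 1, total control library 2 or either total rapamycin library (adjusted p = 0.0539 to 0.0871). RPLP0, the scaffold of the stalk, named after its values were seen, had 18.9, 16.6 and 15.9 FPKM in the control IPs and 125 and 95.3 in the rapamycin IPs, with total RNA at 18.4 and 15.6 and then at 56.9 and 50.5. It rose by 0.95 ± 0.33 (adjusted p = 0.0306 by limma), and leaving out any one of 7 of the 9 libraries ended the call (0.0501 to 0.107). RPL39 rose by 0.84.

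A tract at the RefSeq start was found among ribosomal proteins that fell, that rose and that were not called. Of 66 tested ribosomal protein genes with a RefSeq start, 47 (71.2%) had a tract, against 8.15% of 7004 tested protein-coding genes and 4.07% of all 35116 start windows. RPL36AL (-4.20), which has no tract, was not counted among the 66. Among the 47 with a tract, 30 fell, 3 rose and 14 were not called, with a median of -1.68 and a range from -4.32 to 1.14. Among the 19 without, 14 fell, none rose and 5 were not called, with a median of -1.42 and a range from -2.92 to -0.11. Over all 7004 protein-coding genes the median was -0.27 with a tract (44.1% fell) and -0.18 without (41.1% fell). Only the gene's strand was searched, from the RefSeq start onward, and a RefSeq start need not be the start used in U2OS cells.

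**Figure D2:**
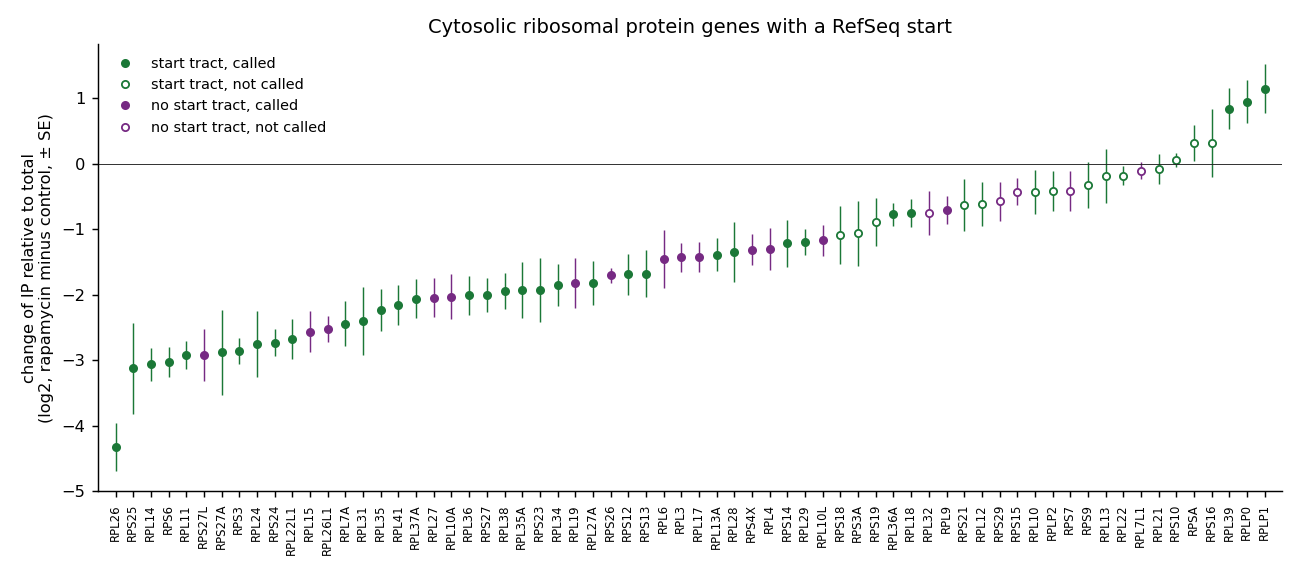
Rapamycin change of IP enrichment (log2, ± SE) of 66 tested cytosolic ribosomal protein genes with a RefSeq start, in order of the change, coloured by whether the start is a C followed by at least 4 pyrimidines, with filled points where the adjusted p was under 0.05. Genes with a tract span the whole range shown, from RPL26 (-4.32) to RPLP1 (1.14), and those shown without lie between -2.92 and -0.11. RPL36AL (-4.20), which has no tract, is not shown.

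Other TOP messages also moved both ways, beside falls in 37.9% and rises in 24.5% of all genes. Of 27 tested elongation factor and other TOP genes, 15 fell and 5 rose (median -0.73). The median of this list turned to 0.56 above that of all genes after quantile normalization. At a mean FPKM of at least 5 it lay 0.20 above. EEF1A1, which carries aminoacyl-tRNA to the ribosome, had 247, 248 and 213 FPKM in the control IPs and 128 and 102 in the rapamycin IPs. Its total RNA rose from 41.2 and 38.5 to 73.1 and 66.8 FPKM. Its enrichment fell by 1.89 ± 0.23 on the log2 scale (adjusted p = 0.000124 by limma), and was -0.32 (adjusted p = 0.394) after quantile normalization. EEF2, the translocase of elongation, had 65.2, 67.3 and 69.4 FPKM in the control IPs and 195 and 189 in the rapamycin IPs, with total RNA at 73.8 and 63.5 and then at 113 and 105. Both fractions were higher in rapamycin cells without overlap, the IP more so, and enrichment rose by 0.78 ± 0.14 (adjusted p = 0.00115 by limma). NACA (-3.14), a chaperone at the ribosome exit, fell and EEF1A2 (1.09), the EEF1A1 paralogue known from muscle and brain, rose. PABPC1, the cytoplasmic poly(A)-binding protein, changed by 0.29 ± 0.29 (adjusted p = 0.4 by limma), as its IP and total levels both fell, and was 1.85 (adjusted p = 0.00101) after quantile normalization.

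Among the translation initiation factors, 17 of 30 tested eIF1, eIF2, eIF3, eIF5 and eIF6 genes fell and none rose, beside 37.9% and 24.5% of all genes. Their median was -0.49, or 0.06 above all genes after quantile normalization and 0.24 above them at a mean FPKM of at least 5. EIF3E (-2.38), a subunit of the complex that binds eIF4G, fell most of them. Of 15 tested genes of eIF4F and poly(A) binding, 8 fell and 1 rose (median -0.42, or 0.05 above all genes after quantile normalization). At a mean FPKM of at least 5, which left 10 of these genes, their median lay 0.84 above that of all genes. EIF4E2, a cap-binding homologue, fell by 1.85 ± 0.13 on the log2 scale, and EIF4E fell by 0.42 ± 0.08, which was -0.16 (adjusted p = 0.163) after quantile normalization. EIF4G1, which encodes the main eIF4G protein, had 10.7, 11.9 and 11.8 FPKM in the control IPs and 13 and 14.7 in the rapamycin IPs, against 26.5 and 24.5 and then 22.9 and 21.5 in total RNA. Its own message was thus below total RNA in both states, and its change of 0.39 ± 0.16 did not pass (adjusted p = 0.0579 by limma). It did pass under 8 of the alternatives, among them quantile normalization (1.504, adjusted p = 0.000238) and removal of the length trend (0.73, adjusted p = 0.00503). The change of EIF4G2 was 0.12 ± 0.18 (adjusted p = 0.579), and was 1.64 (adjusted p = 0.000193) after quantile normalization and 0.47 (adjusted p = 0.0359) with the length trend removed. EIF4G3 rose by 0.52 ± 0.07, a sign that turned (-0.06) with the length trend removed.

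The genes of the mTORC1 pathway itself moved both ways. Of 30 tested genes of the complex and its regulators, 10 fell (33.3%) and 9 rose (30%), near the 37.9% and 24.5% of all genes. Their median of 0.01 lay above that of all genes and turned below it after quantile normalization. Of the 5 tested subunits of Ragulator, which anchors mTORC1 to the lysosome, 4 fell, with LAMTOR5 at -2.43 and LAMTOR2 at -2.39, and LAMTOR4 was at -0.46 (adjusted p = 0.145 by limma). LAMTOR2 had 35.1, 22.5 and 24.4 FPKM in the control IPs and 8.17 and 5.90 in the rapamycin IPs. DDIT4, a stress-induced inhibitor of mTORC1, fell by 1.59 ± 0.16 on the log2 scale, with its IP level at 26.7, 26.6 and 25.8 and then 21.7 and 20.6 FPKM while its total level went from 5.29 and 5.91 to 15.0 and 13.8. MLST8, the small core subunit, rose by 1.31 ± 0.20, and MTOR, the kinase, rose by 0.42 ± 0.06 (0.07, adjusted p = 0.365, with the length trend removed). RPTOR stayed under the filter on low values. FKBP1A, which encodes FKBP12, fell by 0.45 ± 0.15 (adjusted p = 0.0231 by limma), and the call was lost without IP rapamycin library 2, total control library 1 or total rapamycin library 1 (0.0896 to 0.103). The change was -0.07 (adjusted p = 0.694) after quantile normalization and -0.16 (adjusted p = 0.301) with the length trend removed. Of 15 tested substrates and effectors 2 fell and 7 rose (median 0.21). CAD, the pyrimidine synthesis enzyme, rose by 1.15 ± 0.12 and LARP1, the binder of TOP messages, by 0.63 ± 0.08, and PDCD4, an inhibitor of eIF4A, fell by 0.98 ± 0.09. The change of PDCD4 lay mostly in total RNA, which rose by 0.79, while its IP level changed by -0.19.

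Nuclear genes for mitochondria mostly fell, beside falls in 37.9% and rises in 24.5% of all genes. Of 38 tested complex I genes 33 fell and 1 rose (median -1.31), of 38 genes of complexes II to V 32 fell and 1 rose (median -1.51), of 76 mitochondrial ribosomal proteins 65 fell and 3 rose (median -1.34), and of 25 import genes 18 fell and none rose (median -0.78). NDUFS5, a small complex I subunit, had 116, 96.0 and 92.3 FPKM in the control IPs, 10.9 and 7.72 in the rapamycin IPs, 4.37 and 3.80 in control total RNA and 6.17 and 5.29 in rapamycin total RNA. Its change was -3.81 ± 0.26 (adjusted p = 9.22e-06 by limma). UQCRB, a complex III subunit, went from 194, 203 and 192 to 9.08 and 7.43 FPKM in the IP and from 9.51 and 10.4 to 6.87 and 6.2 in total RNA. Its control IPs stood far above all other libraries, which lay close together, and its change was -3.96 ± 0.32 (adjusted p = 1.60e-05). NDUFB3 (-3.46), MRPL39 (-2.22) and TIMM17A (-2.60), of complex I, the mitochondrial ribosome and the import channel, fell as well. The few rises were smaller, with NDUFS7 at 0.41, MRPS6 at 0.37 and ATP5D at 0.79. Mitochondrially encoded genes were not analysed here.

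Genes of other complexes moved the same way, again beside falls in 37.9% and rises in 24.5% of all genes. Of 33 tested proteasome genes 32 fell and none rose (median -1.67), with PSMA4, a core subunit, at -2.90 and PSMC2, an ATPase of the cap, at -2.50. Of 28 spliceosomal Sm and LSM genes 24 fell, 1 rose and 3 were not called (median -1.72). SNRPD1, a core Sm protein, was at -3.52, and SNRNP200, the helicase of the U5 particle, rose by 0.98 ± 0.16. Of 31 heat shock and chaperonin genes 24 fell and none rose (median -1.49), with the mitochondrial co-chaperonin HSPE1 at -3.26. Of 33 endoplasmic reticulum chaperones 28 fell and none rose (median -1.1). MANF, a secreted stress protein of the reticulum, had 95.8, 83.1 and 84.4 FPKM in the control IPs and 12.6 and 11.6 in the rapamycin IPs, while total RNA rose from 9.31 and 8.62 to 15.7 and 13.9. It changed by -3.48 ± 0.17 (adjusted p = 5.98e-06 by limma). CALR, a calcium-binding chaperone, fell by 2.79 ± 0.23 on the log2 scale. The 39 tested replication-dependent histones, many of them near-identical copies whose reads cannot be told apart, had 24 falls and no rise (median -1.39). HIST1H1E, a linker histone, went from 1448, 1290 and 1359 FPKM to 471 and 436 in the IP, with total RNA between 226 and 294, and fell by 1.97 ± 0.17. The medians of these 5 lists stayed below that of all genes under each alternative.

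**Figure D3:**
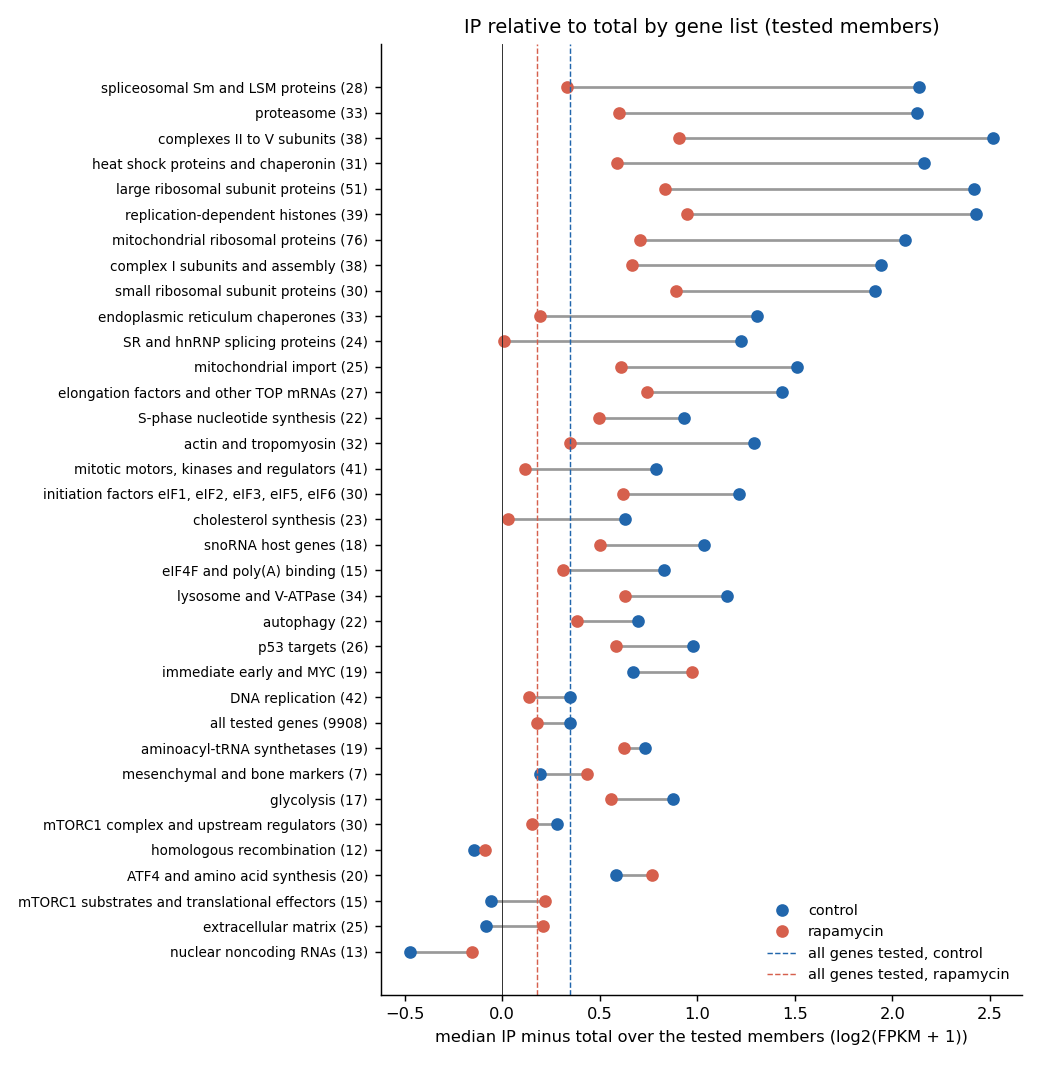
Median IP enrichment (log2(FPKM + 1) in the IP minus total RNA) of each gene list over its tested members, in control cells and rapamycin cells, with the same medians over all tested genes as dashed lines (0.35 and 0.18) and the number of tested members in brackets; lists run from the lowest to the highest median change, which need not equal the distance between the medians. Lists enriched by about 2 log2 units in control cells lie between 0.33 and 0.95 in rapamycin cells.

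Single genes of other kinds stood among the 12 deepest falls. DBI, an acyl-CoA binding protein (hg19 chr2:120125251-120130122), had 603, 563 and 562 FPKM in the control IPs, 45.6 and 33.3 in the rapamycin IPs, 25.3 and 23.4 in control total RNA and 31.9 and 28.0 in rapamycin total RNA. Its change was -4.20 ± 0.22 (adjusted p = 5.98e-06 by limma), and its IP level changed by -4.16 and its total level by 0.04. RPL36AL (-4.20), a near copy of RPL36A, and SRP19 (-3.72), a subunit of the signal recognition particle, also fell. SRP19 had 100, 90.8 and 75.5 FPKM in the control IPs and 6.29 and 5.08 in the rapamycin IPs, and its total RNA lay between 5.17 and 6.28 in all 4 libraries. KLF17 (-3.90), a transcription factor, PAGE2B (-3.65), a cancer-testis antigen, and BEX2 (-3.56) were also in this set. The noncoding host SNHG6 fell by 3.71, and SNORD54 (-4.61) lies within RPS20, so its reads and those of its host cannot be told apart.

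**Figure D4:**
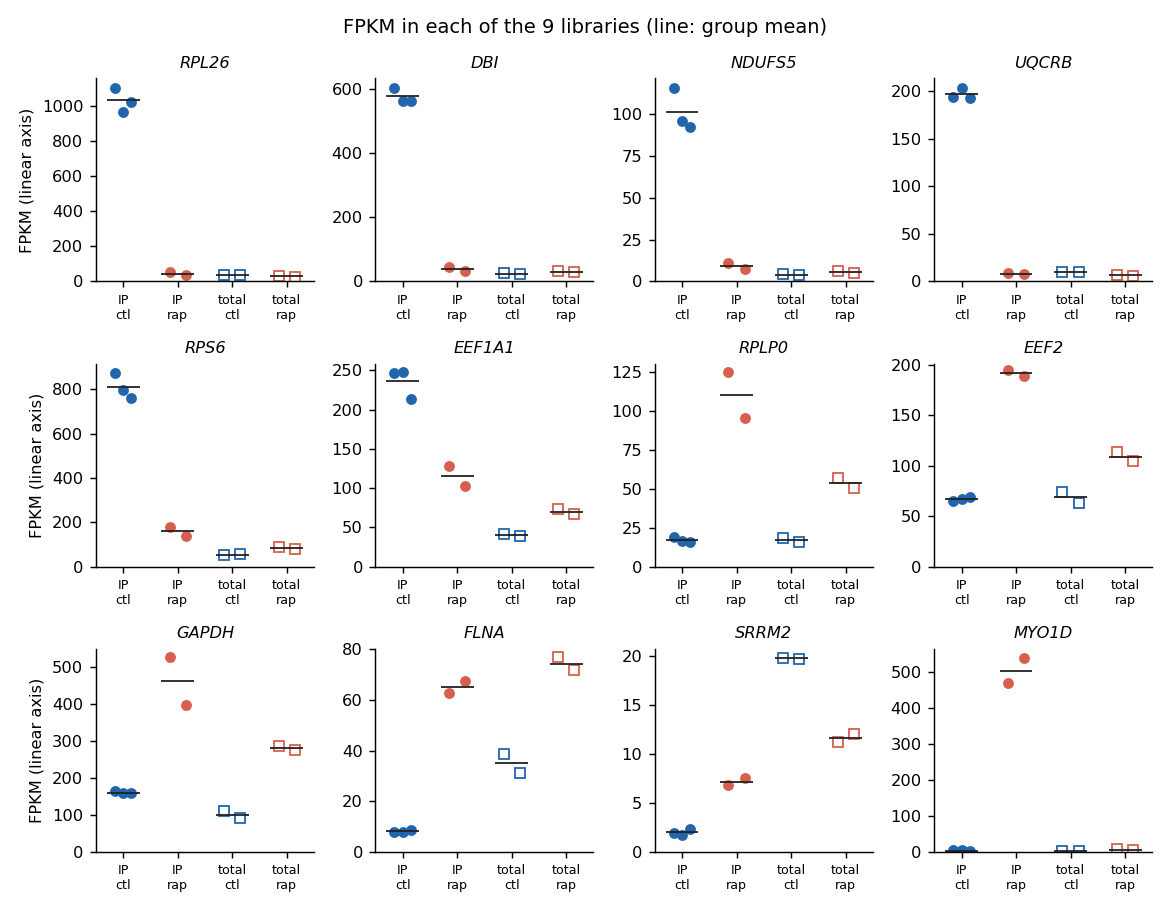
FPKM as deposited in each of the 9 libraries for 12 genes (linear axes from 0; circles, IP; squares, total RNA; lines, group means). RPL26, DBI, NDUFS5, UQCRB and RPS6 are highest in the 3 control IPs, whereas RPLP0, EEF2, GAPDH and MYO1D are highest in the rapamycin IPs and FLNA and SRRM2 remain higher in total RNA.

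Genes depleted from the control IP moved up towards total RNA. FLNA, the actin crosslinker filamin A (hg19 chrX:153576900-153603006), had 7.90, 7.83 and 8.58 FPKM in the control IPs and 62.9 and 67.5 in the rapamycin IPs, with total RNA at 38.8 and 31.2 and then at 76.8 and 71.9. Its IP level rose more than its total level, and the change of enrichment was 1.75 ± 0.15 (adjusted p = 2.19e-05 by limma). SRRM2, a scaffold of nuclear speckles, had 1.95, 1.71 and 2.30 FPKM in the control IPs and 6.80 and 7.53 in the rapamycin IPs, while its total RNA fell from 19.9 and 19.8 to 11.2 and 12.1. Its change was 2.17 ± 0.13 (adjusted p = 7.59e-06), of which 1.21 lay in the IP and the rest in total RNA. MKI67, the proliferation marker Ki-67, rose by 1.73 ± 0.18 as its total RNA went from 23.3 and 22.9 to 14.4 and 14.9 FPKM and its IP level from 2.96, 2.60 and 3.23 to 6.42 and 8.84. FASN (1.55), the fatty acid synthase, SON (1.40), a second speckle protein, and COL1A1 (1.32), a chain of type I collagen, were named after their values were seen. Of 25 tested extracellular matrix genes 12 rose and 6 fell (median 0.33), beside 24.5% and 37.9% of all genes. HSPG2, the large proteoglycan perlecan, was at 0.89 and LAMB1, a laminin chain, at 0.74. TGFBI was at -1.65 and SPARC at -1.3 (-0.03 after quantile normalization). Of 32 actin and tropomyosin genes 16 fell and 11 rose (median -0.56, or 0.26 above all genes after quantile normalization). The light chain MYL6 fell by 2.95 ± 0.27 on the log2 scale, and the myosin MYO1D rose.

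Of 13 tested nuclear noncoding RNAs 6 rose and 3 fell (median 0.55), beside 24.5% and 37.9% of all genes. MALAT1, a speckle RNA, had 98.2, 105 and 119 FPKM in the control IPs and 273 and 336 in the rapamycin IPs, with total RNA between 614 and 679 in all 4 libraries. It stayed below total RNA in both states, and its enrichment rose by 1.34 ± 0.17 (adjusted p = 0.000140 by limma). NEAT1, the paraspeckle RNA, rose by 1.17 ± 0.33 and TUG1 by 1.61 ± 0.24. OIP5-AS1 was among the falls, at -0.89 ± 0.13 (adjusted p = 0.000360 by limma). RPPH1, the RNA of ribonuclease P (hg19 chr14:20811230-20811570), had 1081, 817 and 980 FPKM in the control IPs and 22218 and 18439 in the rapamycin IPs. Its total RNA went from 3080 and 2391 to 7307 and 7088, so it passed from below to above total RNA, with a change of 2.94 ± 0.20 (adjusted p = 9.43e-06).

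The stress and nutrient genes did not move as one. Of 20 tested ATF4 and amino acid genes 6 fell (30%) and 9 rose (45%), beside 37.9% and 24.5% of all genes (median 0.08). ATF4, a transcription factor whose translation is under upstream reading frames, had 153, 157 and 164 FPKM in the control IPs, 102 and 82.3 in the rapamycin IPs, 25.2 and 26.3 in control total RNA and 55.2 and 45.4 in rapamycin total RNA. It fell by 1.78 ± 0.18 on the log2 scale (adjusted p = 4.90e-05 by limma), and was at -0.30 (adjusted p = 0.225) after quantile normalization. Among the 9 genes of this list that rose was PHGDH, the first enzyme of serine synthesis, at 1.37 ± 0.11. The glutamine carrier SLC1A5 (1.36) and ASNS, asparagine synthetase (0.95), also rose and were named after their values were seen. PHGDH had 1.30, 1.26 and 1.57 FPKM in the control IPs and 7.01 and 6.51 in the rapamycin IPs, with total RNA at 1.70 and 1.43 and then at 2.34 and 1.91. Of 34 lysosomal genes 18 fell and 2 rose (median -0.41), or 0.39 above all genes at a mean FPKM of at least 5. Total RNA was called higher in 28 of them (20.4% of all genes). The IP level was called higher in 16 (32.2% of all genes) and lower in 9 (40.3% of all genes). CTSL, a lysosomal protease, fell by 3.23 ± 0.30. Of 22 autophagy genes 11 fell and 4 rose (median -0.37), with ATG3 at -1.24 and GABARAPL1 at -1.05, and RB1CC1, the large scaffold of the initiating kinase complex, at 0.71. At a mean FPKM of at least 5, which left 7 of the autophagy genes, their median lay 0.28 above that of all genes. For GABARAPL1 the change lay in total RNA, which rose by 1.04, while its IP level changed by -0.01 (adjusted p = 0.942 by limma). The autophagy receptor SQSTM1 had 14.6, 14.7 and 15.4 FPKM in the control IPs and 53.3 and 52.3 in the rapamycin IPs, with total RNA at 9.05 and 7.70 and then at 31.1 and 28.1. Both fractions rose by 1.46 on the log2 scale, and the difference between the changes was -0.00 ± 0.14 (adjusted p = 0.995). GAPDH did likewise, with rises of 1.20 in the IP and 1.23 in total RNA and a change of enrichment of -0.03 ± 0.21 (adjusted p = 0.901).

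Cell cycle and synthesis genes moved both ways, beside falls in 37.9% and rises in 24.5% of all genes. Of 42 tested DNA replication genes 22 fell and 3 rose (median -0.31), with the clamp PCNA at -2.26 and the licensing factor CDT1 at 1.06. Of 41 mitotic genes 24 fell and 9 rose (median -0.54, or 0.02 above all genes after quantile normalization), with the checkpoint protein MAD2L1 at -2.98 and the securin PTTG1 at -2.36. At a mean FPKM of at least 5 the median of the mitotic list lay 0.03 above that of all genes. Of 12 homologous recombination genes 3 fell and 4 rose, with BRCA2 (0.46) and BRIP1 (0.57) among the rises and RAD51C (-2.76) among the falls. With the length trend removed BRIP1 was at 0.17 (adjusted p = 0.0542), and the median of the list minus that of all genes turned from 0.19 to -0.12. Of 23 cholesterol genes 15 fell and 4 rose (median -0.46), with the enzyme IDI1 at -2.27 and the regulator SREBF2 at 0.95. Of 24 SR and hnRNP genes 17 fell and 3 rose (median -1.08, or 0.04 above all genes after quantile normalization), with SRSF3 at -2.43. MYC fell by 0.46 ± 0.14 on the log2 scale (adjusted p = 0.0164 by limma), with IP levels of 19.5, 20.8 and 21.1 and then 17.2 and 17.3 FPKM. That call was lost without total rapamycin library 1 (adjusted p = 0.0832) and without scaling (0.052), and the sign turned after quantile normalization (0.63). CCND1, cyclin D1, changed by -0.35 ± 0.16 (adjusted p = 0.0896), and passed with library weights (0.0394) and without IP control library 1 (0.0247). ACTB fell by 0.72 ± 0.16, and its sign also turned after quantile normalization (0.57). It was -0.18 (adjusted p = 0.306) with the length trend removed.

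The direction of change differed by gene length and level. Length is the span in the table, introns included, by which FPKM are scaled, and the added 1 shrinks differences of low genes, so both enter the scale on which enrichment is measured. Among tested protein-coding genes of 1 to 2 kb, median enrichment was 1.48 in control cells and 0.71 in rapamycin cells, and 47.1% fell while 7.85% rose. Among those of 200 kb and over, the medians were -0.76 and -0.22, and 2.45% fell while 81.6% rose. In between, 45.5% fell and 23.3% rose at 20 to 50 kb, and 24.8% fell and 39.1% rose at 50 to 100 kb, where the 2 states crossed. Across all 9908 genes length correlated with the change at Spearman's rho = 0.242, with enrichment in control cells at -0.332 and with enrichment in rapamycin cells at -0.384, so the order by length was present in both states while its size was smaller with rapamycin. Level was taken from total RNA of the CDK12 siRNA libraries, which entered the filter and the fit but not the contrast. At 5 to 20 FPKM 56.6% of genes fell and 16.8% rose, against 31.1% and 32.0% at 1 to 2 FPKM. Below 1 FPKM the shares were 35.1% and 19.8%, so they did not follow level in 1 order. Genes below 1 FPKM there passed the filter at least in part through other libraries, the compared ones among them, so their shares depend in part on the filter. The genes at 5 to 20 FPKM were shorter (median 7.05 kb) than those at 1 to 2 FPKM (24.1 kb).

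**Figure D5:**
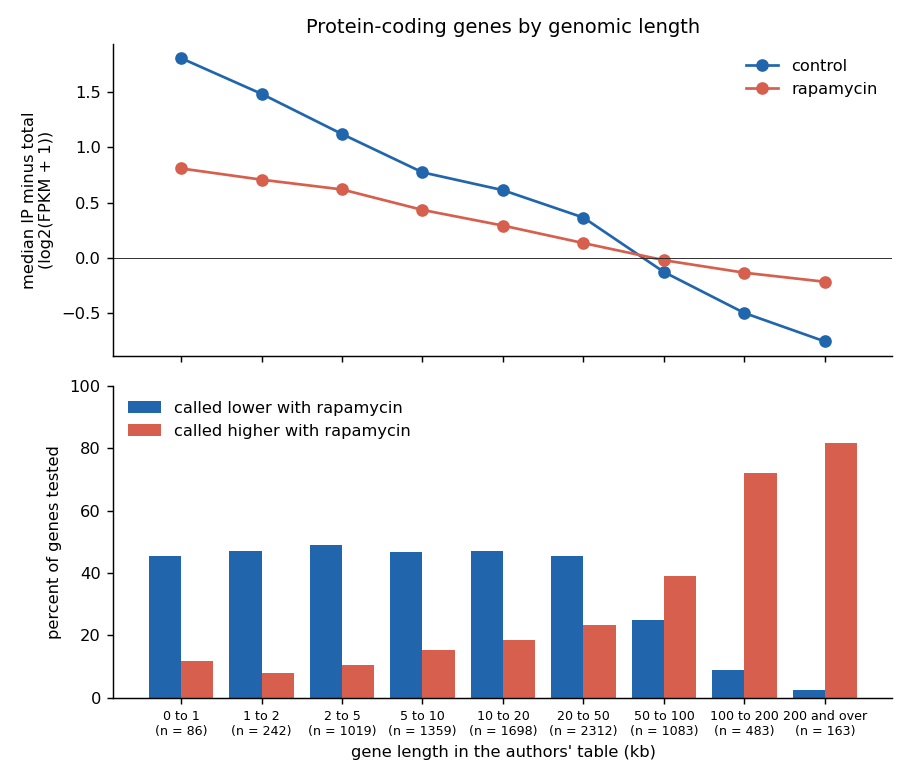
Tested protein-coding genes by length in the authors' table (introns included): upper panel, median IP enrichment (log2(FPKM + 1), IP minus total RNA) in control and rapamycin cells; lower panel, percent of genes whose enrichment fell or rose with rapamycin. Medians run from 1.81 to -0.76 in control cells and from 0.81 to -0.22 in rapamycin cells, and the share that rose passes the share that fell from 50 kb on.

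The largest rises were at small loci and at 2 genes of chromosome 17. Of the 12 largest, 9 are microRNA loci and 1 is the host MIR663AHG. MIR3648-1 with MIR3648-2, MIR3687-1 with MIR3687-2, MIR4477A with MIR4477B and MIR663A with its host overlap or copy each other, and MIR6501 lies within SON, so these are not 10 separate signals. The largest, MIR6087, had 30.7, 9.97 and 88.8 FPKM in the control IPs and 2032 and 1410 in the rapamycin IPs, against 164 to 181 in control and 101 to 191 in rapamycin total RNA, and rose by 6 ± 1.08 (adjusted p = 0.00106 by limma). The other 2 were MYO1D, a class I myosin (hg19 chr17:31086830-31204191), and UNC45B, a chaperone of muscle myosin (hg19 chr17:33475283-33516364). MYO1D had 4.15, 3.48 and 1.26 FPKM in the control IPs and 468 and 537 in the rapamycin IPs, with total RNA at 1.88 and 2.33 and then at 6.52 and 5.80. It held 5.50% and 6.31% of all tags of the rapamycin IPs and at most 0.0765% of any control IP or total library compared, and rose by 5.82 ± 0.60 (adjusted p = 4.96e-05). In the IPs from CDK12 siRNA cells, which had no rapamycin and carry the date code of the controls, it held 0.341% and 0.817% of tags, also above the control IPs (0.0147% to 0.0487%). UNC45B had 0.389, 0.133 and 1.78 FPKM in the control IPs and 51.1 and 65.6 in the rapamycin IPs, with total RNA between 10.0 and 15.5 throughout.

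The authors' deposited table holds the same contrast from unscaled group means, with a TRUE mark for 3285 genes, all of them below -0.5. Of these marked genes in the authors' deposited table, 3137 were tested here, 2891 (88.0% of all marked) fell here and none rose. Of the 3755 genes that fell here, 77.0% carry the mark in the authors' deposited table. The mark is a threshold on a difference of means, without a test, and names falls only.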

How the data were processed

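RNA-seq of U2OS total RNA and of RNA from eIF4G immunoprecipitates came as a single table of 13 libraries. Values are FPKM that the authors made with HOMER over gene bodies of hg19, per the file headers, so introns count. Per the submitters' processing notes, the tools include STAR 2.4.0k and FastQC. Whether counting used strand was not given in the sources used here. Reads of overlapping genes (8219 of 26454) therefore cannot be told apart. The table also holds log2 values of FPKM + 1, group means and their differences that the authors deposited. In the table, 28 symbols turned into dates were repaired.

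Low FPKM were whole multiples of 1 read in 100% of values checked (tolerance 0.02 reads), which gave the depths. FPKM were divided by median-ratio factors (0.865 to 1.23), and log2(FPKM + 1) was fitted with limma 3.58.1 in R 4.3.3 (lmFit, eBayes with a trend, 6 groups, 13 libraries, 9.22 degrees of freedom) where 2 or more libraries had an FPKM of 1 or more. P-values were adjusted by Benjamini-Hochberg over 9908 genes within each contrast, with a threshold of 0.05. Fold changes on this scale understate those of low genes. The fit was also run on simulated data with the same setting of the spread for all genes, and no result here uses that run. Tables were handled with pandas 2.3.3 (Python 3.11.15) and with version 1.17.8 of data.table, numerical work used numpy 2.4.6, and matplotlib 3.10.9 made the plots.

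The gene lists, the tests and the alternatives were chosen with earlier results of these data known. Named genes are fixed translation and mTOR genes, the 12 largest falls and rises (adjusted p under 0.05, a group mean FPKM of at least 5, no overlap of control and rapamycin differences) and, per list, the 2 called members with the smallest p in the main direction and 1 in the other; other genes named were chosen after their values were seen. Start sequences are RefSeq's (GRCh38.p14), matched by symbol for 7004 of 8445 tested protein-coding genes. Same-numbered libraries did not deviate together (r from -0.06 to 0.08). Alternatives were other scalings, pseudocounts, filters and samples, weights, a replicate term, a length correction, voom on recovered reads and each library left out. Protein length was not analysed here.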

Additional observations from a re-analysis of the deposited data

Results flagged for a closer look

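In 381 of the 9908 tested genes the IP was called lower, total RNA was called higher and the difference between these effects was called by limma. Taken singly, the IP was called lower in 40.3% and total RNA higher in 20.4% of all genes. The reverse, a higher IP with lower total RNA and a called difference, was found for 537 of the 9908. Taken singly, the IP was called higher in 32.2% and total RNA lower in 16.2% of all genes. Among the first set CTSV, a lysosomal protease, went from 9.88, 10.0 and 9.52 to 3.00 and 2.72 FPKM in the IP and from 1.20 and 1.15 to 2.94 and 2.56 in total RNA. Among the second MAP1B, a microtubule-associated protein, went from 0.603, 0.581 and 0.715 to 1.91 and 2.04 FPKM in the IP and from 4.80 and 4.73 to 3.5 and 3.38 in total RNA. QSER1 and PTPN14 did the same, with changes of enrichment of 1.35 and 1.15. The 4 genes were named after their values were seen.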

How the results depend on the processing

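Over 21 alternatives (9 of them leaving out 1 library), 2957 of 3048 values of 150 named genes kept direction and side of the threshold. Many of these genes were chosen for large or clear changes in these same data, so this share does not describe all genes. Signs turned after quantile normalization for MYC (0.63), ACTB (0.57), VIM (0.46), MCL1 (0.60), TPT1 (0.71), EIF4A1 (0.0193) and DUSP1 (0.10), and with the length trend removed for MYC (0.0027) and EIF4G3 (-0.0636). Of 34 lists, 17 kept the sign of their median relative to all genes under every alternative, 10 changed it after quantile normalization, 12 with a mean FPKM of at least 5 and 5 with the length trend removed. A mean FPKM of at least 5, which tests fewer genes, gave 1483 falls and 171 rises, 1053 and 61 of them at least 2-fold, and 1627 calls for rapamycin IP against total, 1989 for control IP against total, 1741 in the IP and 824 in total RNA. Without a filter 5208 genes rose, 13940 were called for control IP against total and 6265 in total RNA. Falls of at least 2-fold numbered 611 after quantile normalization, 846 with a pseudocount of 5 and 1054 with the length trend removed. Rises of at least 2-fold numbered 493, 36 and 618 under the same settings, 807 with a pseudocount of 0.25, 126 without overlapping genes and 1295 with voom. Calls in total RNA numbered 5514 after quantile normalization and 5816 with library weights. The ratio of SDs was 0.501 after quantile normalization. The cause of these shifts was not tested. Leaving out 1 library gave 3181 to 3772 falls, 2070 to 2311 rises, 1472 to 1913 and 208 to 264 of at least 2-fold, 2981 to 5110 calls for rapamycin IP against total (main 5144), 7485 to 7978 for control IP against total (7972), 6317 to 7086 in the IP (7183) and 1760 to 3714 in total RNA (3633), and ratios of SDs of 0.396 to 0.492. For rapamycin IP against total the low counts were without IP rapamycin library 1 (2993) and total rapamycin library 2 (2981). In total RNA they were without total control library 1 (2418) or 2 (2218) and without total rapamycin library 1 (1760) or 2 (2316). The labels number the replicates alike, and same-numbered libraries did not deviate together, which does not show that they came from separate cultures. With the replicate block 3707 genes fell and 2405 rose, FKBP1A (adjusted p = 0.0502) lost its call, and no other named gene did.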

Other observations

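Chromosome 17 between MYO1D and UNC45B, a stretch of 2.43 Mb, holds 23 genes of the table, of which 9 were tested. SPACA3, a sperm lysozyme-like gene named after its values were seen, had 1.07, 0.521 and 0.2 FPKM in the control IPs and 7.92 and 9.56 in the rapamycin IPs, against 0.147 to 0.357 in total RNA. TMEM98, which lies between MYO1D and SPACA3, fell by 0.59. SPACA3 rose by 2.65 ± 0.30 (adjusted p = 8.10e-05 by limma). The other tested genes of the stretch moved both ways, with CCL2 at -2.08 and ZNF830 at -1.91, RFFL at 0.37 and NLE1 at 0.75, and LIG3 not called (0.25, adjusted p = 0.118).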
